A study of Danio rerio with 19 samples.

Results

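Severe tail fin injury in *wwtr1* Crispants was followed in 6 of the 19 bulk RNAseq libraries of the series, namely the 3 from injured and the 3 from uninjured tail fins of these larvae. They were chosen by their labels alone. Crispants are F0 fish that received Cas9 with guide RNAs at the one-cell stage, here against *wwtr1*, the gene of the transcriptional co-activator Taz. Such fish carry a mixture of mutations that differs between cells and between fish, so the group is not a line with 1 allele. All fish were of the WIK strain and 4 dpf old at collection. The injured fish had lost the end of the tail at 3 dpf by the severe cut, which removes fin fold together with part of the notochord, and tissue was taken at 24 hpi. Uninjured fish were kept to the same age. Every library came from pooled tail fins, cut in both states at the start of the pigment gap, so injured samples hold a regrowing stump and uninjured samples an intact fin. The other 13 libraries came from WT fish (3 uninjured and 3 injured) and *yap1* Crispants (3 uninjured and 4 injured), treated in the same way. Whether the WT fish had been injected is not given in the sources used here.

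Taz and its paralogue Yap1 carry the output of the Hippo pathway. When the kinases Stk3 and Lats1/2 are active, Yap1 and Taz are phosphorylated and held in the cytoplasm. When the kinases are inactive, Yap1 and Taz enter the nucleus and bind Tead factors on target genes such as the *ctgf* and *cyr61* genes. The larval fin fold is a thin double sheet of epidermis held out by actinotrichia, stiff fibrils of collagen and Actinodin made by skin and mesenchyme. After severe injury, neutrophils and then macrophages gather at the stump, the wound epidermis closes over it, notochord cells are extruded as a bead, and a blastema of proliferating cells forms from which the lost part regrows. The comparison asked how gene expression stood at 24 hpi in fish in which *wwtr1* had been targeted.

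The 6 *wwtr1* libraries held between 28081131 and 68187208 counts each. Levels are given as CPM, counts per 1000000 counts, on the normalised library size, on which 3 counts correspond to between 0.0484 and 0.0891 CPM, and they are not scaled by gene length. The 10 most counted genes took 28.9% to 29.5% of the counts of uninjured libraries and 15.7% to 18.2% of injured ones. On the first principal component of the 6 libraries, which held 51.1% of their variance, uninjured libraries lay between -80.6 and -73.6 and injured libraries between 64.1 and 91.6. The second component, with 17.7%, set injured replicate 1 at -80.2 apart from injured replicates 2 and 3 at 36.6 and 53.8. Among uninjured libraries replicate 1 stood apart for *malat1* and for erythroid genes. The nuclear RNA *malat1* took 5.69% of its counts against 2.67% and 2.28% in the other uninjured libraries, and erythroid genes summed to 282 CPM against 25.1 and 33.7 CPM. Genes of the mitosis list summed to 77.2, 130 and 323 CPM in uninjured replicates 1, 2 and 3, with replicate 3 the furthest from the others. Where a result rested on 1 library, its value without that library is given beside it.

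The targeted gene was read first. *wwtr1* (ENSDARG00000067719) had 0.629, 0.818 and 1.19 CPM in the uninjured and 1.01, 0.444 and 1.24 CPM in the injured libraries. The states overlapped, and the log2 fold change was 0.04 (standard error, SE, of 0.58 and adjusted p = 0.977). Uninjured WT had 0.619, 0.7 and 1.19 CPM, within the range of the *wwtr1* Crispants, so its count does not tell the genotypes apart. Counts over a whole gene do not distinguish mutated from intact transcripts and thus check neither the labels nor the knockout.

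Over all genes, 1314 of 20979 tested were raised upon injury (6.26%) and 994 were lowered (4.74%), where a differentially expressed gene (DEG) had a Benjamini-Hochberg adjusted p under 0.05 in edgeR's quasi-likelihood test and changed by more than 1 on the log2 scale in either direction. The median log2 fold change was 1.93 among raised and -1.61 among lowered DEGs, and 237 raised and 77 lowered DEGs lay beyond 4 on this scale. The injured and uninjured libraries did not overlap for 1291 of the raised and 980 of the lowered DEGs, and over all genes tested 4335 were higher and 3789 lower in every injured library. With each library left out in turn, the counts ran from 936 to 1230 raised and from 672 to 828 lowered, and 708 raised and 446 lowered DEGs were called in all 6 of these fits. The shares of all genes, 6.26% raised and 4.74% lowered, are the background for every list count below. Gene names are written as the reference gene table gives them, in capitals for many zebrafish genes, and where copies share a name the Ensembl ID is added.

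Genes of the Hippo pathway came next. Of 14 measured kinases and regulators none rose and 2 fell, against 4.74% of all genes tested that fell and 6.26% that rose. *AMOTL2*, an angiomotin that binds Yap1 and Taz, had levels of 212, 157 and 145 CPM without injury and of 55.4, 53.5 and 47.1 CPM upon injury. All injured libraries lay below all uninjured ones, with a log2 change of -1.72 (SE 0.27, adjusted p = 0.000344). *WWC1*, the upstream regulator Kibra, had a log2 change of -1.07 (SE 0.28, adjusted p = 0.0133), but with injured replicate 1 left out its adjusted p was 0.0692. The kinases *lats1* and *lats2* and the upstream tumour suppressors *nf2a* and *nf2b* had log2 fold changes of -0.84, -0.68, -0.41 and 0.01 and did not pass the test. None of 9 effectors passed in edgeR or DESeq2, none had an unadjusted p under 0.05, and *yap1* had uninjured values of 193, 299.7 and 318 CPM and injured values of 268, 251 and 268 CPM. Among 11 established Yap/Taz targets, 2 rose (18.2%, against 6.26% of all genes) and none fell. This list held *amotl2b*, while its lowered paralogue *AMOTL2* was counted among the regulators only. Both raised targets were copies of *ANKRD1*, a muscle ankyrin repeat protein. The copy ENSDARG00000076192 had 2.94, 3.52 and 3.07 CPM in the uninjured and 13.2, 17.2 and 14.9 CPM in the injured libraries. Its groups did not overlap, with a log2 change of 2.25 (SE 0.50, adjusted p = 0.00471). The other copy was counted at most 1.81 CPM, and its call was lost with uninjured replicate 1, uninjured replicate 2, injured replicate 1 or injured replicate 2 left out (adjusted p up to 0.0952). The classical targets gave no call. *ctgfa* had levels of 82.8, 45.3 and 54.2 CPM without injury and of 61.8, 44.7 and 31.3 CPM upon injury, *ctgfb* had a log2 fold change of 0.57 and *cyr61* of 0.21, none of them past the threshold.

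The raised genes with the smallest adjusted p included the leucocyte genes *SPI1* and *selplg*, and the lowered ones genes of fin fold matrix and of tyrosine breakdown. *PDLIM3* (ENSDARG00000014248), an actin-binding PDZ and LIM domain protein, had uninjured values of 1.06, 1.14 and 1.93 CPM and injured values of 26.8, 19.4 and 25.8 CPM, with a log2 change of 4.13 (SE 0.29, adjusted p = 3.71e-07). *SPI1*, the myeloid master regulator PU.1, had 2.00, 2.55 and 1.76 CPM in the uninjured and 25.2, 23.0 and 21.2 CPM in the injured libraries, with a log2 change of 3.46 (SE 0.33, adjusted p = 6.33e-06). Its injured values were tightly grouped and far above every uninjured one. *selplg*, the selectin ligand by which leucocytes attach to vessel walls, had levels of 0.290, 0.248 and 0.397 CPM without injury and of 5.08, 8.18 and 6.23 CPM upon injury. *cmpk*, a nucleotide kinase, had uninjured values of 52.6, 55.2 and 56.3 CPM and injured values of 229, 215 and 241 CPM, a smaller change (2.06 on the log2 scale, adjusted p = 3.62e-06) that was measured with little spread. *PTGES3* (ENSDARG00000089626), a co-chaperone of Hsp90 also known as a prostaglandin E synthase, had 31.3, 39.4 and 32.5 CPM in the uninjured and 87.6, 108 and 95.8 CPM in the injured libraries. *fkbp1ab*, an immunophilin, had a log2 change of 3.49 (SE 0.32, adjusted p = 4.81e-06). Of the raised genes without a described function, *si:cabz01074946.1* had levels of 0.0323, 0.0248 and 0.0992 CPM without injury and of 7.01, 7.58 and 7.77 CPM upon injury, and the unnamed ENSDARG00000100461 had uninjured values of 0.161, 0.223 and 0.173 CPM and injured values of 9.06, 8.53 and 9.63 CPM. These were close to absent from every uninjured library.

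On the lowered side, *angptl2b*, a secreted angiopoietin-like protein, had 209, 208 and 326 CPM in the uninjured and 42.6, 40.4 and 30.5 CPM in the injured libraries, with a log2 change of -2.71 (SE 0.22, adjusted p = 1.46e-06). *CEMIP*, a hyaluronan-degrading protein, had a log2 change of -2.27 (SE 0.21, adjusted p = 4.81e-06). *lamb2l*, a laminin beta chain of basement membranes, had levels of 305, 328 and 356 CPM without injury and of 70.4, 55.6 and 52.3 CPM upon injury, and *CHST2* (ENSDARG00000058585), a sulphotransferase, had a log2 change of -2.62 (SE 0.26, adjusted p = 7.04e-06). No injured library reached the level of any uninjured library for these genes, which was a condition for their being named. The unnamed ENSDARG00000115956 had uninjured values of 53.3, 91.7 and 72.5 CPM and injured values of 4.63, 5.62 and 1.81 CPM.

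**Figure D1:**
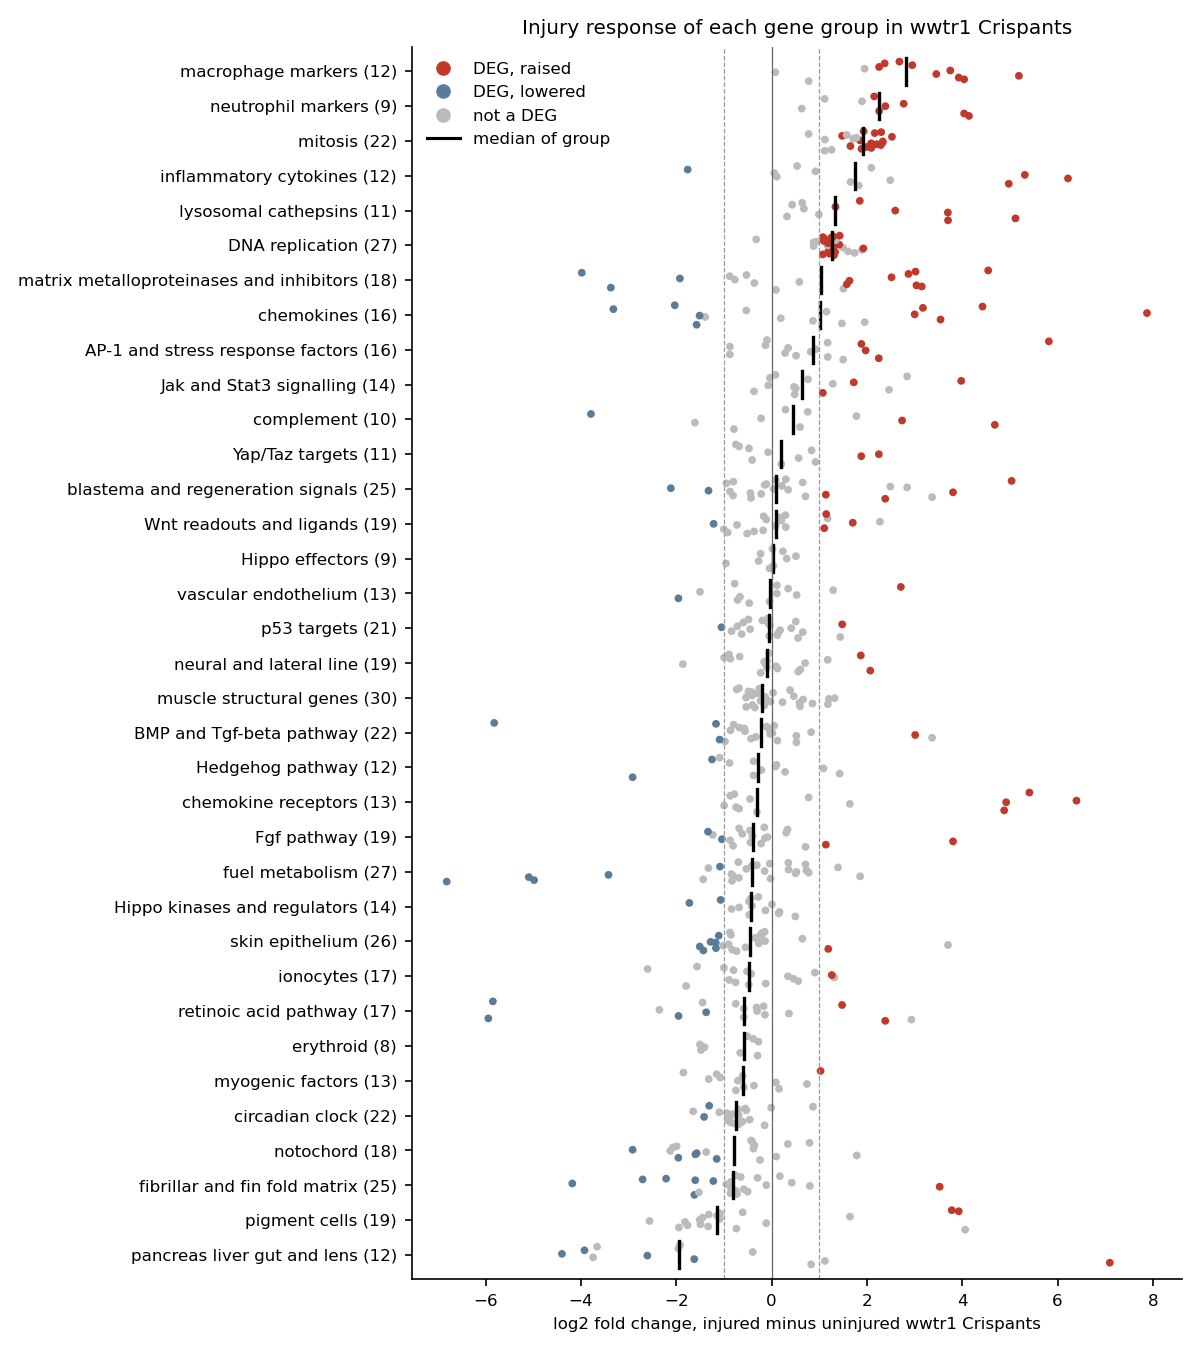
Each point is 1 gene of a list, placed by its log2 fold change between injured and uninjured *wwtr1* Crispants (3 libraries each), with the number of genes tested in parentheses, the median as a bar and dashed lines at -1 and 1. Red points are raised DEGs, blue points lowered DEGs and grey points neither; macrophage markers have the highest median at 2.82, and muscle genes have no DEG.

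Myeloid cell genes rose together. Of 12 macrophage markers 9 rose (75.0%, against 6.26% of all genes) and none fell. Their median log2 fold change was 2.82, against a median of -0.001 over all genes. *MPEG1* (ENSDARG00000055290), the perforin-like gene that marks macrophages in zebrafish reporter lines, had 3.02, 1.64 and 6.22 CPM in the uninjured and 53.5, 61.5 and 63.7 CPM in the injured libraries. The lowest injured value was several times the highest uninjured one, and the log2 fold change was 4.04 (SE 0.60, adjusted p = 0.000216). *marco*, a scavenger receptor, rose (5.19 on the log2 scale, adjusted p = 0.000459), as did the macrophage transcription factor *IRF8* (3.75 on the log2 scale, adjusted p = 0.00825) and *csf1ra*, the receptor for the macrophage growth factor Csf1 (3.93 on the log2 scale, adjusted p = 0.00823). The call of *c1qb*, a complement component made by macrophages, was lost without uninjured replicate 1, uninjured replicate 3 or injured replicate 2 (adjusted p up to 0.11). The summed level of the whole list was 15.0 to 19.8 CPM uninjured and 129 to 143 CPM injured. A second *MPEG1* copy, ENSDARG00000043093, had a log2 fold change of 0.78 and did not pass the test. Bulk tissue does not tell more cells of a type from more RNA per cell, and this holds for each cell type below.

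Neutrophil markers followed, with 6 of 9 raised (66.7%) and none lowered (median 2.26). The myeloperoxidase gene, listed as *EPX*, had levels of 0.887, 0.644 and 1.64 CPM without injury and of 17.8, 22.8 and 15.2 CPM upon injury, with a log2 change of 4.14 (SE 0.45, adjusted p = 1.26e-05). *lyz*, lysozyme of neutrophil granules, had uninjured values of 0.290, 0.0991 and 0.223 CPM and injured values of 4.19, 4.62 and 1.57 CPM, which set injured replicate 3 below the other injured libraries but above all uninjured ones. *NCF1*, a subunit of the NADPH oxidase, rose (2.77 on the log2 scale, adjusted p = 0.00298), and so did *srgn*, a granule proteoglycan (2.39 on the log2 scale, adjusted p = 0.0027). *LECT2* (ENSDARG00000090889) was called only with all libraries in the fit (adjusted p up to 0.153). The summed level of the list was 144 to 187 CPM uninjured and 287 to 379 CPM injured.

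Receptors by which leucocytes are guided rose in part. Of 13 chemokine receptors 4 rose (30.8%) and none fell, while the median of the list was -0.31. *ccr12b.2* had 0.161, 0.0248 and 0.173 CPM in the uninjured and 11.14, 12.2 and 8.50 CPM in the injured libraries, *CMKLR1* (ENSDARG00000090890) had levels of 0.645, 0.198 and 0.644 CPM without injury and of 21.2, 22.1 and 21.1 CPM upon injury, and *cxcr3.2* had uninjured values of 0.194, 0.0743 and 0.644 CPM and injured values of 9.77, 8.53 and 8.29 CPM. These receptors had at most 0.645 CPM in uninjured libraries and at least 8.29 CPM in injured ones. *ACKR3* (ENSDARG00000058179), a scavenger receptor for Cxcl12 outside leucocytes, had a log2 fold change of -0.45 and was no DEG.

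Lysosomal proteases, which phagocytes and matrix-resorbing cells use to break down what they take up, rose as well. Of 11 cathepsins 6 rose (54.5%) and none fell (median 1.34), and all 6 were called with any 1 library left out. *ctsl.1* had 17.0, 4.46 and 10.6 CPM in the uninjured and 391, 400.5 and 327 CPM in the injured libraries, with a log2 change of 5.12 (SE 0.61, adjusted p = 2.98e-05). *CTSK*, the collagen-cleaving cathepsin K, had levels of 53.4, 63.2 and 119.6 CPM without injury and of 1128, 1106 and 842 CPM upon injury, with a log2 change of 3.70 (SE 0.39, adjusted p = 8.84e-06). The cathepsin S genes *ctss2.1* and *ctss2.2* had log2 fold changes of 3.70 and 2.60. *CTSD*, the aspartic protease cathepsin D, had uninjured values of 562, 369 and 335 CPM and injured values of 524, 546 and 639 CPM, with overlapping groups.

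Signals that draw or instruct immune cells were mixed. Of 16 chemokines 5 rose (31.2%, against 6.26% of all genes) and 4 fell (25.0%, against 4.74%). *ccl19a.2*, whose mammalian counterpart is a ligand of Ccr7, had 0.355, 0 and 0.397 CPM in the uninjured and 67.1, 80.8 and 36.2 CPM in the injured libraries, with a log2 change of 7.88 (SE 0.96, adjusted p = 3.47e-05). It was nearly absent from uninjured fins and was counted in every injured library. *ccl35.1*, *cxcl19* and *ccl34b.1* rose with log2 fold changes of 4.43, 3.55 and 3.18. *ccl27a*, whose mammalian counterpart is a skin chemokine, went the other way with levels of 14.1, 29.2 and 22.9 CPM without injury and of 2.52, 3.24 and 0.879 CPM upon injury (-3.32 on the log2 scale, adjusted p = 0.00118). *CXCL14*, also an epithelial chemokine, had uninjured values of 311, 269 and 536 CPM and injured values of 143, 124 and 125 CPM, with a log2 change of -1.51 (SE 0.30, adjusted p = 0.00208). The neutrophil attractant *cxcl8a* was low and fell (-1.57 on the log2 scale, adjusted p = 0.0426), though this call was lost with any of the 6 libraries left out (adjusted p up to 0.131). *ccl44* likewise lost its call in 5 of the 6 fits, all but that without injured replicate 2 (adjusted p up to 0.0892). *cxcl18b* had 6.97, 3.69 and 5.58 CPM in the uninjured and 11.8, 8.78 and 9.09 CPM in the injured libraries, higher in every injured library, but did not pass the test (0.87 on the log2 scale, adjusted p = 0.162).

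Among 12 inflammatory cytokines 3 rose (25.0%) and 1 fell (8.33%, against 4.74% of all genes) at 24 hpi, and DESeq2 called 6 raised. *il11b*, a cytokine of the interleukin 6 family, had levels of 0.0806, 0 and 0 CPM without injury and of 4.52, 0.622 and 2.64 CPM upon injury, with a log2 change of 6.22 (SE 1.31, adjusted p = 0.00327), and it was the 1 call of the 4 that was made with every library left out in turn. *tnfa* was counted at 0.172 to 0.422 CPM in injured libraries and at 0 to 0.0248 CPM, under the floor of 3 counts, in uninjured ones (adjusted p = 0.0191). *IL10*, an anti-inflammatory cytokine, was counted at 0.178 to 1.24 CPM in injured and 0 to 0.0248 CPM in uninjured libraries (adjusted p = 0.0135). Both calls were lost with uninjured replicate 1 or injured replicate 2 left out, and besides without uninjured replicate 3 for *tnfa* and uninjured replicate 2 for *IL10* (adjusted p up to 0.0873 and 0.0615). *csf1b*, a macrophage growth factor, had a log2 change of -1.76 (SE 0.53, adjusted p = 0.0298), and lost its call without uninjured replicate 2, uninjured replicate 3, injured replicate 2 or injured replicate 3 (adjusted p up to 0.179). *tgfb1a* had uninjured values of 39.4, 44.7 and 49.1 CPM and injured values of 61.6, 39.0 and 38.1 CPM and overlapped between states. Of 10 complement genes 2 rose and 1 fell. *c7a*, a component of the membrane attack complex, had 8.88, 12.5 and 8.95 CPM in the uninjured and 75.4, 62.1 and 64.7 CPM in the injured libraries (2.74 on the log2 scale, adjusted p = 0.000152), and *c4b* had a log2 change of 4.68 (SE 1.02, adjusted p = 0.0042). *cfd*, the protease that starts the alternative pathway, fell, with levels of 939, 1306 and 1153 CPM without injury and of 60.7, 112 and 73.4 CPM upon injury and a log2 change of -3.79 (SE 0.45, adjusted p = 2.73e-05). The highest injured value of *cfd* was far below the lowest uninjured one.

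**Figure D2:**
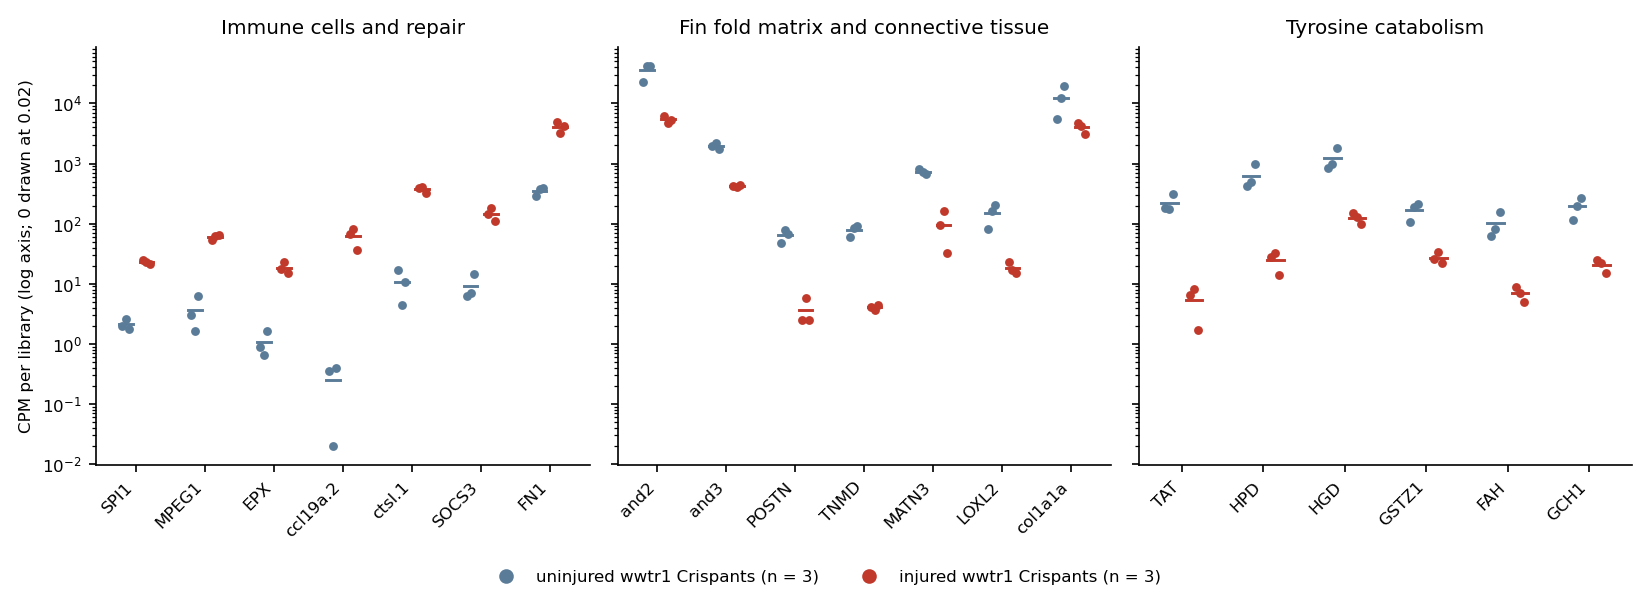
Points are CPM of single libraries on a log axis (uninjured in blue, injured in red, 3 *wwtr1* libraries each), bars are group means, and a value of 0 is drawn at 0.02. Immune and repair genes are higher in all injured libraries, such as *SPI1* at 21.2 to 25.2 against 1.76 to 2.55 CPM, and matrix and tyrosine catabolism genes are lower in all of them.

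Of 14 genes of the Jak and Stat3 pathway 3 rose (21.4%, against 6.26% of all genes) and none fell. *SOCS3*, the feedback inhibitor of Stat3 signalling, had uninjured values of 6.22, 7.06 and 14.4 CPM and injured values of 146, 181 and 109.8 CPM for the copy ENSDARG00000026611, with a log2 change of 3.98 (SE 0.56, adjusted p = 0.000121). The second copy, ENSDARG00000025428, had a log2 change of 1.73 (SE 0.43, adjusted p = 0.0107), and lost its call without uninjured replicate 2 or uninjured replicate 3 (adjusted p up to 0.053). *jak2a* had a log2 change of 1.08 (SE 0.30, adjusted p = 0.0201), and its call was kept only in the fit without injured replicate 1 (adjusted p up to 0.0659).

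Of 16 AP-1 and stress response factors 4 rose (25.0%), all 4 in every fit with 1 library left out, and none fell. *JUNB* (ENSDARG00000074378), of the AP-1 transcription factor family, had 87.4, 42.7 and 41.0 CPM in the uninjured and 291, 251 and 272 CPM in the injured libraries (2.25 on the log2 scale, adjusted p = 0.00643). Its partner *FOSL2* had levels of 99.7, 58.2 and 62.2 CPM without injury and of 301, 277 and 286 CPM upon injury (1.97 on the log2 scale, adjusted p = 0.000599). *hspb9*, a small heat shock protein, had uninjured values of 0.419, 0.372 and 0.868 CPM and injured values of 43.6, 19.8 and 29.6 CPM. *HSPA5*, the chaperone BiP of the endoplasmic reticulum, had 306, 425 and 512 CPM in the uninjured and 1491, 1630 and 1469 CPM in the injured libraries, with a log2 change of 1.89 (SE 0.29, adjusted p = 0.000271). The immediate early genes *FOS* and *egr1* had log2 fold changes of -0.88 and -0.87 and did not pass the test. Nor was the second *JUNB* copy, ENSDARG00000104773, a DEG.

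Other folding genes of the endoplasmic reticulum were read beside *HSPA5*. In a list of 22 such genes, *HSPA5* among them, 15 were raised and none lowered, with a median log2 fold change of 1.39. The list was assembled after the values had been seen, so this count is a description only, beside the 6.26% of all genes that rose. *MANF*, a secreted stress protein, had levels of 35.8, 42.4 and 41.0 CPM without injury and of 165, 232 and 209 CPM upon injury (2.35 on the log2 scale, adjusted p = 4.76e-05). *HYOU1*, a large chaperone, had a log2 change of 1.83 (SE 0.24, adjusted p = 6.19e-05), and the disulphide isomerase *PDIA4* had a log2 change of 1.85 (SE 0.27, adjusted p = 0.000168). *HSP90B1*, the Hsp90 of this compartment, had uninjured values of 232, 352 and 518 CPM and injured values of 1125, 1240 and 1222 CPM. The isomerase *P4HB* and the chaperone *CALR*, both central to folding, had log2 fold changes of 0.40 and 0.83 (adjusted p = 0.573 and 0.107) and were not called. *XBP1*, a transcription factor of the unfolded protein response, had a log2 fold change of 0.55, and *EDEM1* and *HERPUD1*, which act in degradation of misfolded proteins, had 0.36 and 0.32, none of which was a DEG. Of the 15 raised genes, 13 kept their call in all fits that left out 1 library.

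Genes that build and cut the extracellular matrix moved in opposite directions. Of 18 metalloproteinases and their inhibitors 8 rose (44.4%) and 3 fell (16.7%). *mmp11b* had 30.6, 22.8 and 44.9 CPM in the uninjured and 248, 239 and 388 CPM in the injured libraries, with a log2 change of 3.15 (SE 0.35, adjusted p = 1.8e-05), while its family member *MMP11* (ENSDARG00000026325) had levels of 16.9, 26.8 and 46.2 CPM without injury and of 3.92, 2.44 and 2.35 CPM upon injury, with a log2 change of -3.37 (SE 0.61, adjusted p = 0.00101). The related proteases thus went opposite ways, each with separate groups. *adam8a*, a membrane protease of leucocytes, rose (4.55 on the log2 scale, adjusted p = 6.63e-05). *mmp25b* was lost without uninjured replicate 2 or uninjured replicate 3 (adjusted p up to 0.077). *mmp13a*, a collagenase, had uninjured values of 2.48, 2.75 and 0.917 CPM and injured values of 14.2, 20.7 and 15.9 CPM, and its adjusted p of 0.0155 went to 0.0673 without uninjured replicate 3. The inhibitor *TIMP2* (ENSDARG00000075261) had 19.0, 17.8 and 19.8 CPM in the uninjured and 176, 123 and 116 CPM in the injured libraries, with a log2 change of 2.87 (SE 0.33, adjusted p = 1.99e-05). The copies of *TIMP4* were opposed, as ENSDARG00000111805 had 3.02 and ENSDARG00000100795 had -3.98 on the log2 scale. *MMP2*, a gelatinase, had levels of 536, 683 and 864 CPM without injury and of 774, 594 and 852 CPM upon injury, with overlapping groups.

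The fin fold matrix fell in its leading members. Of 25 fibrillar and fin fold matrix genes 6 fell (24.0%) and 1 rose (4.0%), with a median log2 fold change of -0.81. *and2*, an Actinodin gene of actinotrichia, had uninjured values of 23020, 41820 and 41980 CPM and injured values of 6248, 4759 and 5382 CPM, with a log2 change of -2.70 (SE 0.24, adjusted p = 2.99e-06). *and1* had 36390, 70020 and 72390 CPM in the uninjured and 21280, 16770 and 20930 CPM in the injured libraries (-1.60 on the log2 scale, adjusted p = 0.00356), and *and3* had levels of 1953, 2189 and 1722 CPM without injury and of 417, 410.5 and 438 CPM upon injury (-2.21 on the log2 scale, adjusted p = 1.46e-06). The states were separate for all of them, although *and1* and *and2* were lower in uninjured replicate 1 than in the other uninjured libraries. *POSTN* (ENSDARG00000043806), periostin, had uninjured values of 48.1, 79.8 and 68.4 CPM and injured values of 2.47, 5.87 and 2.46 CPM, and the log2 fold change was -4.18 (SE 0.62, adjusted p = 0.000216). *col1a1a*, the main collagen I chain, had 5451, 12130 and 19170 CPM in the uninjured and 4761, 4161 and 3053 CPM in the injured libraries (-1.62 on the log2 scale, adjusted p = 0.0353), and was called only with all libraries or without uninjured replicate 1 (adjusted p up to 0.179). The single raised member was *FN1* (ENSDARG00000006526), fibronectin, a matrix protein of wounds and blastemas. It had levels of 289, 378 and 393 CPM without injury and of 4865, 3198 and 4171 CPM upon injury, with a log2 change of 3.53 (SE 0.69, adjusted p = 0.00188). No value of an injured library was near the uninjured ones. The second copies of *FN1* (ENSDARG00000019815) and *POSTN* (ENSDARG00000104267) were tested and were no DEGs.

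Tendon and connective tissue matrix fell alongside. This group of 22 genes was assembled after values had been seen, and 14 were lowered and 1 raised, each in all fits with 1 library left out. These counts are therefore a description only, beside the 4.74% of all genes that fell. *TNMD*, tenomodulin, a marker of tendon cells, had uninjured values of 59.5, 84.2 and 92.1 CPM and injured values of 4.07, 3.67 and 4.37 CPM (-4.28 on the log2 scale, adjusted p = 2.1e-05). Of the thrombospondins, *THBS4* (ENSDARG00000020072) had 219, 251 and 567 CPM in the uninjured and 43.5, 27.3 and 23.8 CPM in the injured libraries, and *THBS3* (ENSDARG00000012060) had levels of 80.1, 151 and 315 CPM without injury and of 9.09, 6.93 and 4.22 CPM upon injury. The uninjured libraries differed among themselves, but none came near an injured one. The other *THBS4* copy, ENSDARG00000102777, was unchanged, with a mean of 217 CPM uninjured and 216 CPM injured (-0.01 on the log2 scale). *LOXL2*, a lysyl oxidase that cross-links collagen, had uninjured values of 81.8, 165 and 208 CPM and injured values of 22.7, 17.1 and 14.9 CPM. *MATN3* (ENSDARG00000069245), a matrilin, had 808, 735 and 659.7 CPM in the uninjured and 94.7, 162 and 32.3 CPM in the injured libraries, with injured replicate 3 the lowest. The raised member was the second *THBS3* copy, ENSDARG00000077641, with levels of 1.56, 6.02 and 15.8 CPM without injury and of 39.5, 34.8 and 39.1 CPM upon injury. The tendon transcription factor *SCX* had a log2 fold change of 0.98 and was no DEG.

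Of 25 blastema and regeneration genes 4 rose (16.0%, against 6.26% of all genes) and 2 fell (8.0%, against 4.74%), and the median log2 fold change was 0.09. *FGF20* (ENSDARG00000007356), whose zebrafish copy is required to start fin blastemas, had uninjured values of 1.23, 0.793 and 1.54 CPM and injured values of 19.4, 16.1 and 14.4 CPM, with a log2 change of 3.81 (SE 0.56, adjusted p = 0.00021). The lowest injured value was well above the highest uninjured one. *spp1*, osteopontin, had 0.0323, 0.297 and 1.49 CPM in the uninjured and 21.5, 21.7 and 14.1 CPM in the injured libraries, with a log2 change of 5.04 (SE 0.92, adjusted p = 0.00109). *ALDH1A2*, which makes retinoic acid and marks the distal blastema, had levels of 3.61, 1.19 and 4.73 CPM without injury and of 28.8, 8.62 and 12.6 CPM upon injury, with a log2 change of 2.39 (SE 0.71, adjusted p = 0.0279). All 3 injured libraries were above all uninjured ones, but the call was lost without uninjured replicate 1, uninjured replicate 2 or injured replicate 1 (adjusted p up to 0.14). *INHBA*, an activin subunit of the proximal blastema, was not raised in either copy. ENSDARG00000012671 had uninjured values of 2.61, 2.03 and 2.21 CPM and injured values of 1.51, 1.89 and 1.68 CPM, and ENSDARG00000024759 was at or under 0.156 CPM in every library. Of the 4 homeobox genes of the *msx* family 2 fell. *msx3* had 193, 224 and 356 CPM in the uninjured and 76.8, 49.5 and 52.5 CPM in the injured libraries (-2.11 on the log2 scale, adjusted p = 0.000633), and *msx1b* had levels of 109, 90.9 and 110.2 CPM without injury and of 45.3, 36.8 and 41.8 CPM upon injury (-1.32 on the log2 scale, adjusted p = 3.79e-05). *msx1a* and *msx2b* had log2 fold changes of 0.04 and 0.35 and did not pass the test.

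Retinoic acid genes pointed both ways, with 2 of 17 raised (11.8%) and 4 lowered (23.5%). Besides *ALDH1A2*, the retinol dehydrogenase *RDH10* (ENSDARG00000058730) rose (1.48 on the log2 scale, adjusted p = 0.029), a call lost without uninjured replicate 1, uninjured replicate 3, injured replicate 1 or injured replicate 2 (adjusted p up to 0.105). *CYP26C1*, which degrades retinoic acid, had uninjured values of 161, 79.9 and 57.7 CPM and injured values of 36.1, 24.6 and 16.5 CPM, with a log2 change of -1.95 (SE 0.40, adjusted p = 0.00285). *CYP26A1*, of the same family, had 0.372 to 2.31 CPM in uninjured libraries and at most 0.0297 CPM, under the floor of 3 counts, in injured ones (adjusted p = 0.0069). *CRABP2* (ENSDARG00000073978), which binds retinoic acid in the cell, had 972, 1276 and 1205 CPM in the uninjured and 539, 384 and 412 CPM in the injured libraries, with a log2 change of -1.37 (SE 0.27, adjusted p = 0.00219). *STRA6*, the retinol transporter, had 0 to 0.355 CPM in uninjured libraries and 0 in all injured ones, and its call was made only with all libraries or without uninjured replicate 2 (adjusted p up to 0.306).

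Of 19 Wnt ligands and readouts 3 rose (15.8%) and 1 fell (5.26%), and only *DKK3* (ENSDARG00000070683), a Dickkopf family member, was called in all fits with 1 library left out. It had levels of 13.2, 8.72 and 15.7 CPM without injury and of 42.4, 43.0 and 37.3 CPM upon injury (1.71 on the log2 scale, adjusted p = 0.000347). *TCF7*, a nuclear effector of Wnt signalling, and *WNT5A* had log2 fold changes of 1.15 and 1.11. The former was lost without uninjured replicate 1, uninjured replicate 2 or injured replicate 1 (adjusted p up to 0.0548) and the latter without uninjured replicate 2 or injured replicate 3 (adjusted p up to 0.0603). The Wnt antagonist *dkk1b* had uninjured values of 312, 144 and 135 CPM and injured values of 77.3, 97.8 and 79.0 CPM (-1.22 on the log2 scale, adjusted p = 0.0159), with uninjured replicate 1 the highest, and was lost without it, injured replicate 1 or injured replicate 3 (adjusted p up to 0.134). The feedback readouts *AXIN2* and *LEF1* had log2 fold changes of -0.92 and -0.51 and were no DEGs.

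Of 19 Fgf pathway genes 2 rose and 2 fell (10.5% each, where 6.26% and 4.74% of all genes did). Beside *FGF20*, *FGF8* (ENSDARG00000039615) had 1.14 and *FGFR1* (ENSDARG00000011027) -1.04 on the log2 scale, calls that no fit with a library left out repeated (adjusted p up to 0.151 and 0.132). *SPRY2*, a feedback inhibitor of Fgf signalling, had 85.7, 104 and 112 CPM in the uninjured and 50.9, 38.1 and 30.8 CPM in the injured libraries, with a log2 change of -1.33 (SE 0.26, adjusted p = 0.00161). Of 12 Hedgehog genes none rose and 2 fell (16.7%). *SHH* (ENSDARG00000038867), the ligand made by notochord and floor plate, had levels of 3.87, 1.56 and 3.22 CPM without injury and of 0.0297, 0.667 and 0.420 CPM upon injury, with a log2 change of -2.91 (SE 0.67, adjusted p = 0.00622). The second *SHH* copy, ENSDARG00000068567, was tested and was no DEG. *GLI3* had -1.25 and was called only with all libraries or without uninjured replicate 1 (adjusted p up to 0.111), and the receptor and readout *PTCH1* had a log2 fold change of -0.21. Of 22 BMP and Tgf-beta genes 1 rose (4.55%) and 3 fell (13.6%). *FST* (ENSDARG00000057992), follistatin, the inhibitor of activins, had uninjured values of 1.90, 4.76 and 6.39 CPM and injured values of 40.5, 24.2 and 40.2 CPM, with a log2 change of 3.01 (SE 0.55, adjusted p = 0.00109). *mstnb*, myostatin, a brake on muscle growth, had 0.79 to 1.17 CPM in uninjured libraries and at most 0.0382 CPM in injured ones (adjusted p = 0.00778). The other lowered members were *TGFB3* (-1.17 on the log2 scale, adjusted p = 0.00574), which without uninjured replicate 3 had a log2 fold change of -0.84, and *BMP7* (ENSDARG00000063230, -1.09 on the log2 scale, adjusted p = 0.000907), which without uninjured replicate 1 or injured replicate 3 missed the fold threshold (-0.94 at the smallest).

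Genes of cell division were higher upon injury, but by an amount that rested on which uninjured libraries were used. Of 27 DNA replication genes 17 rose (63.0%) and none fell (median 1.27). Of 22 mitosis genes 15 rose (68.2%) and none fell (median 1.91). *plk1*, a mitotic kinase, had 4.03, 5.38 and 15.7 CPM in the uninjured and 58.0, 34.5 and 33.8 CPM in the injured libraries, with a log2 change of 2.33 (SE 0.46, adjusted p = 0.00202). *UBE2C*, a ubiquitin-conjugating enzyme of the anaphase-promoting complex, had levels of 2.37, 3.00 and 7.16 CPM without injury and of 23.5, 19.5 and 18.5 CPM upon injury (2.30 on the log2 scale, adjusted p = 0.00109). *MCM5*, of the replicative helicase, had uninjured values of 29.7, 66.8 and 90.3 CPM and injured values of 115, 194 and 162 CPM (1.33 on the log2 scale, adjusted p = 0.00818), and *RRM2* (ENSDARG00000020711), which makes deoxynucleotides, had 7.55, 11.2 and 21.7 CPM in the uninjured and 38.03, 65.3 and 50.01 CPM in the injured libraries (1.93 on the log2 scale, adjusted p = 0.0188). Injured libraries were the higher for each of these genes, and uninjured replicate 1 was the lowest throughout.

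Without uninjured replicate 1 the counts of raised genes were 4 for DNA replication and 7 for mitosis, without uninjured replicate 2 they were 10 and 8, and without uninjured replicate 3, the highest uninjured library, they were 21 and 21. Leaving out injured replicate 2 gave 7 for DNA replication, and leaving out injured replicate 1 gave 9 for mitosis. With both uninjured replicate 1 and injured replicate 1 left out, an alternative chosen after the data had been seen, 5 and 4 were called. The call of *RRM2* was lost without uninjured replicate 1, uninjured replicate 2 or injured replicate 2 (adjusted p up to 0.086), while *MCM5* came just short of the fold threshold without uninjured replicate 1. Calls in all 6 fits were held by 3 replication and 7 mitosis genes, among them *plk1*, *UBE2C* and *bub1*. *mki67*, the gene of the proliferation marker Ki-67, had levels of 21.5, 30.8 and 80.9 CPM without injury and of 110.4, 88.0 and 90.3 CPM upon injury, and its log2 fold change of 1.12 had an adjusted p of 0.129. The shares among 21 p53 targets, 4.76% in either direction, were near those of all genes (6.26% and 4.74%). Of these targets 1 rose (*fas*, 1.48 on the log2 scale, adjusted p = 0.004) and 1 fell (*SESN1*, -1.05 on the log2 scale, adjusted p = 0.00365), the latter lost without uninjured replicate 1 or injured replicate 1, where it missed the fold threshold.

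**Figure D3:**
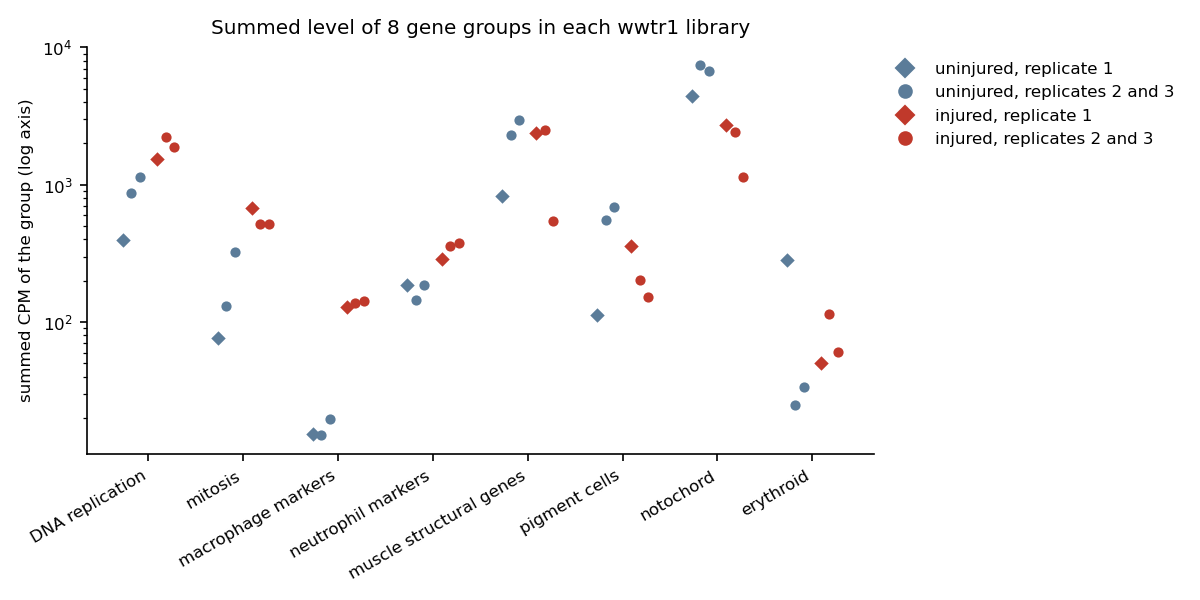
Points are summed CPM of the genes of 8 lists in each *wwtr1* library, on a log axis, with uninjured libraries in blue, injured libraries in red and replicate 1 of each state as a diamond. Among uninjured libraries replicate 1 has the lowest sum for DNA replication, mitosis, muscle, pigment and notochord genes and the highest for erythroid genes, whereas macrophage sums are separate between states at 15.0 to 19.8 and 129 to 143 CPM.

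Markers of the tissues in the sample served to read what each library held. Of 18 notochord genes none rose and 5 fell (27.8%, median -0.79). *COL9A2*, a collagen of the notochord sheath and bead, had uninjured values of 255, 371 and 313 CPM and injured values of 135, 128 and 53.1 CPM, with a log2 change of -1.57 (SE 0.42, adjusted p = 0.016). *COL2A1* (ENSDARG00000069093), the main sheath collagen, had 2837, 5109 and 4545 CPM in the uninjured and 1468, 1293 and 461 CPM in the injured libraries, with a log2 change of -1.96 (SE 0.65, adjusted p = 0.0459). For both collagens the injured libraries were below the uninjured ones and injured replicate 3 was the lowest. *COL9A2* lost its call without uninjured replicate 2 or injured replicate 3 (adjusted p up to 0.0766), and *COL2A1* with any of the 6 left out (adjusted p up to 0.165). Without uninjured replicate 2 or injured replicate 3 only 1 notochord gene was called, and that gene, *SHH*, was called with each of the 6 libraries left out in turn. The early notochord factor *tbxta* had a log2 fold change of -0.24. The severe cut removes notochord, and less of that tissue in the sample and lower expression in it cannot be told apart.

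None of 30 muscle structural genes passed the test (median -0.19). None had an unadjusted p under 0.05 in edgeR, and none was a DEG in DESeq2. Their summed level was 824 to 2945 CPM uninjured and 542 to 2490 CPM injured, and these ranges overlapped. *actc1b*, a sarcomeric actin, had levels of 92.0, 563 and 748 CPM without injury and of 460.4, 575 and 64.1 CPM upon injury, lowest in injured replicate 3 and uninjured replicate 1. Of 13 myogenic factors 1 rose (7.69%, against 6.26% of all genes) and none fell. It was *MET* (1.03 on the log2 scale, adjusted p = 0.0176), a call lost without uninjured replicate 1 or injured replicate 3 (adjusted p up to 0.0893).

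Skin keratins fell in part. Of 26 epithelial genes 6 fell (23.1%) and 1 rose (3.85%), with a median of -0.44. *krt5*, a keratin of basal epidermis, had uninjured values of 17670, 26760 and 27450 CPM and injured values of 7196, 10120 and 9373 CPM, with a log2 change of -1.43 (SE 0.29, adjusted p = 0.00271), and *krt91* had 989.8, 944 and 993 CPM in the uninjured and 278, 358 and 395 CPM in the injured libraries (-1.51 on the log2 scale, adjusted p = 0.00123). *krt18a.1*, a keratin of simple epithelia, was the member that rose, with levels of 828, 899 and 962 CPM without injury and of 1978, 2070 and 2088 CPM upon injury. *krt4*, a keratin of the surface layer, had uninjured values of 107900, 97060 and 93790 CPM and injured values of 45640, 59920 and 74370 CPM, lower in all injured libraries but no DEG. *cyt1* and *cyt1l*, type I keratins, fell by 1.17 and 1.28 on the log2 scale, and both calls were lost without uninjured replicate 1, injured replicate 1 or injured replicate 2 (adjusted p up to 0.144). Without injured replicate 1 only 2 of the 6 lowered calls were made. The epidermal regulator *TP63* and the adhesion gene *epcam* had log2 fold changes of -0.23 and -0.34. Of 17 ionocyte genes 1 rose (5.88%, near the 6.26% of all genes) and none fell. It was *ATP6V1A* (ENSDARG00000076318), a proton pump subunit, with 15.1, 15.5 and 15.2 CPM in the uninjured and 41.1, 31.0 and 37.97 CPM in the injured libraries.

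Pigment genes had a median log2 fold change of -1.14 without a single lowered DEG, and they varied widely. *TYRP1* (ENSDARG00000056151), a melanin enzyme, had levels of 59.4, 344 and 436 CPM without injury and of 109, 86.8 and 51.8 CPM upon injury, so that uninjured replicate 1 lay among the injured libraries. The 2 raised members of the 19 tested (10.5%, against 6.26% of all genes), *csf1ra* and *TFEC*, are also expressed by macrophages. Of 19 neural and lateral line genes 2 rose (10.5%) and none fell. They were *gap43*, a growth cone protein, and *tubb5*, a tubulin (2.07 and 1.87 on the log2 scale). Neither was called without uninjured replicate 1, uninjured replicate 2 or injured replicate 1, nor *gap43* without uninjured replicate 3 or injured replicate 3 (adjusted p up to 0.106 and 0.0992). Of 13 endothelial genes 1 rose and 1 fell (7.69% each, against 6.26% and 4.74% of all genes). *stab2* rose (2.71), a call lost without uninjured replicate 1, uninjured replicate 3, injured replicate 1 or injured replicate 2 (adjusted p up to 0.097). *EGFL7* fell (-1.95), a call lost without injured replicate 3 (adjusted p = 0.0523). None of 8 erythroid genes passed in edgeR or DESeq2, none had an unadjusted p under 0.05, and the globin gene *hbae3* had uninjured values of 167, 9.41 and 16.1 CPM and injured values of 27.6, 67.5 and 27.2 CPM.

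Markers of organs outside the fin summed to 24.7 to 38.5 CPM in uninjured and 31.8 to 57.3 CPM in injured libraries. Most of the sum in each injured library was the 1 gene *gcga*, whose values are given below. The sums thus do not show how the other markers changed, and the median log2 fold change of the list was -1.94. The cells in which these markers were expressed were not tested. Of 12 pancreas, liver, gut and lens genes 4 fell (33.3%) and 1 rose (8.33%, against 6.26% of all genes). The lowered ones were apolipoproteins and transferrin at low level, such as *apoa1a* with 10.4, 9.59 and 6.52 CPM in the uninjured and 1.51, 1.49 and 1.36 CPM in the injured libraries, and no fit without an injured library called more than 1 of them. The raised one was *gcga*, the glucagon gene, with levels of 0.274, 0.446 and 0.0496 CPM without injury and of 49.3, 20.6 and 37.1 CPM upon injury, and the log2 fold change was 7.10 (SE 1.26, adjusted p = 0.000907). *gcga* had at most 0.446 CPM in uninjured libraries and at least 20.6 CPM in injured ones, while *sst2* and *prss1*, markers of the same organ, had log2 fold changes of 1.12 and 0.83 and were no DEGs.

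Genes of tyrosine breakdown and of the pterin cofactor were lowered in the main. This group of 14 genes holds the enzymes from tyrosine to fumarate and genes of the pterin cofactor. It was assembled after *HPD* and *HGD* had appeared among the lowered genes with the smallest adjusted p. Of the 14, 10 fell and none rose, and all 10 were called with any 1 library left out. Given that choice, these counts are a description only, beside the 4.74% of all genes that fell. In the order of the pathway, *TAT*, tyrosine aminotransferase, had uninjured values of 179, 178 and 309 CPM and injured values of 6.48, 8.15 and 1.70 CPM, with a log2 change of -5.36 (SE 0.62, adjusted p = 2.32e-05). *HPD*, which makes homogentisate, had 420.2, 497 and 964 CPM in the uninjured and 28.1, 33.0 and 13.8 CPM in the injured libraries, with a log2 change of -4.65 (SE 0.43, adjusted p = 4.69e-06). *HGD*, which opens its ring, had levels of 856, 984 and 1813 CPM without injury and of 149.7, 129 and 99.9 CPM upon injury, with a log2 change of -3.27 (SE 0.32, adjusted p = 7.04e-06). Uninjured replicate 3 was the highest and injured replicate 3 the lowest for each of these enzymes, and the states were far apart. *GSTZ1*, the next step, had uninjured values of 105, 187 and 211 CPM and injured values of 25.3, 34.2 and 22.4 CPM, and *FAH*, which releases fumarate at the end, had 62.6, 81.7 and 158 CPM in the uninjured and 8.94, 6.96 and 5.04 CPM in the injured libraries. *GCH1*, the entry enzyme of pterin synthesis, had levels of 114, 200 and 270.1 CPM without injury and of 24.8, 22.2 and 15.2 CPM upon injury, with a log2 change of -3.23 (SE 0.36, adjusted p = 1.61e-05), *PCBD1* had a log2 change of -2.22 (SE 0.23, adjusted p = 7.57e-06), and *QDPR* (ENSDARG00000040190), which regenerates the cofactor, had a log2 change of -2.75 (SE 0.46, adjusted p = 0.000599). The later pterin enzymes *PTS* and *SPR* (ENSDARG00000004406) were under 1 CPM on average in both states and were not called. The *QDPR* copy ENSDARG00000037378 had a mean of 8.16 CPM uninjured and 7.14 CPM injured (-0.19 on the log2 scale) and was not called. A further copy, ENSDARG00000086859, had means of 0.0901 and 0.102 CPM and was not called either. Pigment cells also use pterins and tyrosine. The 19 pigment genes summed to 113, 557 and 690.1 CPM in uninjured libraries and to 358, 203 and 153 CPM in injured ones. The part of these cells in the result was not tested.

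Of 27 fuel metabolism genes none rose and 5 fell (18.5%, against 4.74% of all genes). *UCP1*, a mitochondrial uncoupling protein, had uninjured values of 208, 228 and 427 CPM and injured values of 2.73, 3.78 and 1.18 CPM, with a log2 change of -6.81 (SE 0.69, adjusted p = 7.06e-06), and *ucp3* had 19.1, 12.0 and 8.53 CPM in the uninjured and 0.564, 0.600 and 0.115 CPM in the injured libraries, with a log2 change of -4.98 (SE 0.66, adjusted p = 7.64e-05). Injured values of both were a small fraction of the uninjured ones in each library. *PDK2* (ENSDARG00000059054), which shuts off pyruvate dehydrogenase, had levels of 72.6, 66.9 and 89.1 CPM without injury and of 3.60, 12.3 and 5.44 CPM upon injury (-3.42 on the log2 scale, adjusted p = 0.000189). *fbp1b*, an enzyme of gluconeogenesis, had a log2 change of -5.09 (SE 0.80, adjusted p = 0.000333). *ANGPTL4* was lost without injured replicate 3 (adjusted p = 0.0656). *UCP2* had a log2 fold change of -0.83 and was no DEG. Of 22 clock genes none rose and 2 fell (9.09%), *nr1d2a* (-1.41 on the log2 scale, adjusted p = 0.0109), a nuclear receptor of the clock, and *hlfa* (-1.31 on the log2 scale, adjusted p = 0.00699). *nr1d2a* was lost without uninjured replicate 1 (adjusted p = 0.0618). The median of the list was -0.75, and 20 of its members had no call.

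The injury response of *wwtr1* Crispants was then set against that of WT, which shares no library with it. The difference of the responses passed the test for 0 of 20979 genes (0% called). In edgeR 584 genes had an unadjusted p under 0.05. With no difference at all a share of 0.05 would be reached by chance, and 584 genes are below that share. The number moved with the fit, to 838 with only the *wwtr1* and WT libraries and to between 435 and 1094 with 1 library left out. Without WT injured replicate 1 it was 1094 of 21516, above that share. It therefore does not measure how alike the responses were. DESeq2, run on all 32520 gene IDs without the expression filter, called 1 gene, with 862 at an unadjusted p under 0.05. With 3 libraries a group this test can miss differences, so 0 calls do not show that the responses were the same. Of the 1314 raised DEGs 1310 had a positive log2 fold change in WT, and of the 994 lowered DEGs 983 had a negative one. The share of all genes tested with the same direction in both genotypes was not counted, so these counts have no background beside them. In WT 1729 of the 20979 genes were raised DEGs and 1634 lowered DEGs, more than in *wwtr1* Crispants in either direction. Such counts also follow the spread between libraries, and those of WT were not taken with libraries left out. The gap is thus no test of the size of the response. Raised in both were 1036 genes, which is 78.8% of the *wwtr1* list and 59.9% of the WT list. Lowered in both were 752 genes, which is 75.7% and 46.0% of these lists. No gene was a DEG in opposite directions. A further 178 raised and 166 lowered genes were DEGs in *wwtr1* Crispants and in neither of the other genotypes, without a test showing that they differed.

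**Figure D4:**
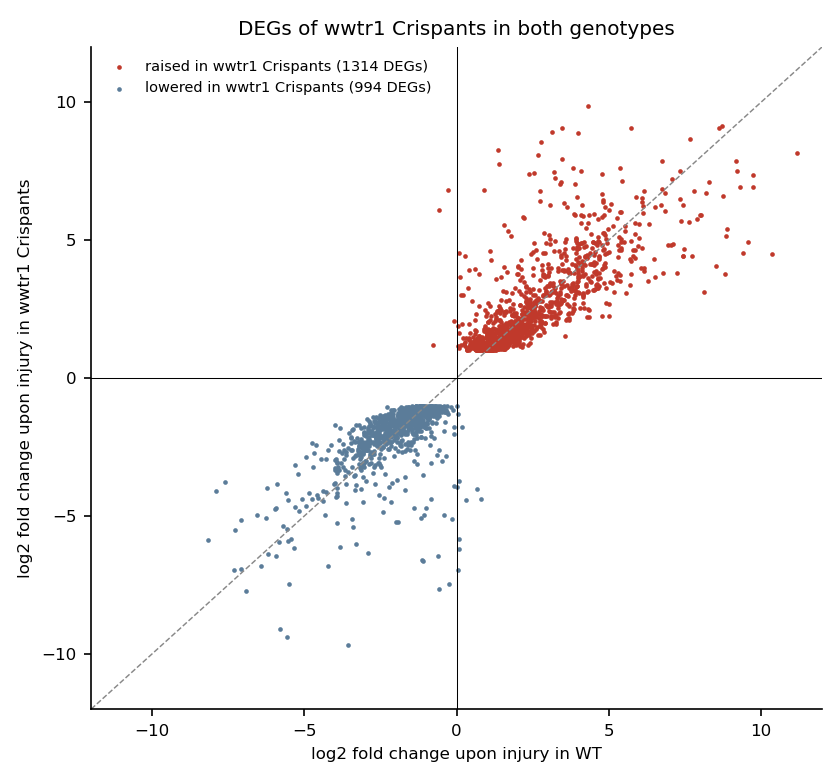
Each point is a DEG of injured against uninjured *wwtr1* Crispants, placed by its log2 fold change upon injury in WT (horizontal) and in *wwtr1* Crispants (vertical), with the diagonal dashed. Raised DEGs (1314, red) lie to the right of 0 except for 4 and lowered DEGs (994, blue) to the left of 0 except for 11.

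The gene with the smallest unadjusted p for a difference from WT was *si:ch1073-235i16.2*. It had uninjured values of 1.44, 1.06 and 0.917 CPM and injured values of 4.87, 4.89 and 4.62 CPM in *wwtr1* Crispants, while WT had 3.40 to 4.36 CPM in uninjured and 3.16 to 4.21 CPM in injured libraries. The uninjured *wwtr1* libraries were thus the ones that stood low, and the difference in log2 fold change was 2.14 (SE 0.43, unadjusted p = 0.000101, adjusted p = 1). This was also the 1 gene that DESeq2 called (difference 2.099, adjusted p = 0.0342). *lamb3*, a laminin chain of epidermal basement membrane, was a raised DEG in both genotypes. The Crispants had 0.387, 0.421 and 0.297 CPM in the uninjured and 9.69, 6.62 and 9.57 CPM in the injured libraries, and WT had 0 to 0.0258 CPM, under the floor of 3 counts, in uninjured and 8.79 to 11.3 CPM in injured libraries. *lamb3* was called when only the *wwtr1* and WT libraries were fitted (adjusted p = 0.0464).

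Both *nfkbia* copies, which encode inhibitors of NF-kB and are themselves induced by it, appeared among the 6 genes with the smallest unadjusted p. *nfkbiaa* had levels of 55.9, 55.5 and 31.2 CPM without injury and of 73.1, 54.9 and 72.6 CPM upon injury in *wwtr1* Crispants, while uninjured WT had 82.3, 106 and 194 CPM and injured WT 49.4, 37.3 and 30.2 CPM. It thus had a log2 fold change of 0.49 in the Crispants and -1.71 in WT, a difference of 2.203 (SE 0.48, unadjusted p = 0.000246, adjusted p = 1). *nfkbiab* had log2 fold changes of 0.41 and -1.06. In WT, uninjured replicate 3 had the highest value of both. Leaving out that 1 WT library raised the number of genes called different from 0 to 18, with *rnf8* the first of them (difference -2.25, adjusted p = 0.00589), and none of the 6 named by unadjusted p was among the 18.

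Against *yap1* Crispants likewise, the difference of the responses passed the test for 0 of 20979 genes (0% called). In edgeR 530 had an unadjusted p under 0.05, again below a share of 0.05 of all genes. With 1 library left out the number was 467 to 712. DESeq2, again without the expression filter, called 1 gene, *crp2*, and 837 had an unadjusted p under 0.05 there. Here too 0 calls do not show that the responses were the same. The smallest unadjusted p belonged to *ATP8B1*, a phospholipid flippase. It had uninjured values of 27.8, 22.6 and 29.0 CPM and injured values of 28.9, 37.1 and 31.7 CPM in *wwtr1* Crispants, while *yap1* Crispants had 42.3, 91.9 and 61.2 CPM when uninjured and 30.8, 33.0, 23.1 and 33.96 CPM when injured. The injured levels of the genotypes were alike in range and the uninjured *yap1* libraries were higher, with a difference of 1.41 (SE 0.32, unadjusted p = 0.000343, adjusted p = 1). *selplg* rose by a log2 fold change of 4.38 in *wwtr1* Crispants and 2.35 in *yap1* Crispants (unadjusted p = 0.000933, adjusted p = 1). For myeloid lists the median log2 fold changes in *wwtr1* Crispants, WT and *yap1* Crispants were 2.82, 3.92 and 1.90 for macrophage markers and 2.26, 2.87 and 1.28 for neutrophil markers, with no member called different between genotypes.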

How the data were processed

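RNA was purified from pooled tail fins with a column kit, and libraries were made with a low-input kit. Trimming with Trim Galore was followed by alignment with BWA-MEM, which does not split reads across introns, and the authors deposited raw counts per Ensembl gene made with HTSeq on GRCz11. Tool versions and the strand setting are not given in the sources used here, so counts of overlapping, antisense or near-identical genes are uncertain. Of 32520 gene IDs, 29201 had a name in the reference gene table.

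The counts of all 19 libraries were fitted together with edgeR (4.0.16, R 4.3.3), after its expression filter over the 6 groups, with TMM scaling, robust quasi-likelihood dispersions and a prior count of 0.125, and p-values were adjusted by Benjamini-Hochberg over all 20979 genes. The difference of injury responses between genotypes was tested as an interaction in the same fit. Each SE was worked back from this test, as the size of the log2 fold change divided by the square root of its F statistic. It is thus approximate, above all for genes near the floor. DESeq2 (1.42.0) was the alternative test, run on all 32520 gene IDs without the expression filter. Other alternatives were RLE scaling, other filters and thresholds, counts drawn down to the smallest library, a prior count of 2, only the groups compared, a replicate block and each library left out. The labels call the libraries biological replicates, but do not say whether they came from separate clutches, so p-values measure the spread between these libraries. No 2 *wwtr1* libraries of a group were alike within sampling noise, and the WT and *yap1* libraries were not checked for this.

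The genes and the 35 lists (570 of 615 IDs tested) were chosen with earlier results of these data known. Named genes were those targeted in the Crispant screen, genes of the study's regeneration account, the 10 raised and 10 lowered DEGs of smallest adjusted p with a mean of at least 1 CPM and separate groups, up to 4 DEGs of each list by size of change with up to 2 in the other direction and its most counted member without a call, and 6 genes per interaction. The lists of endoplasmic reticulum folding, of tendon matrix and of tyrosine breakdown, and all other genes named, were chosen after their values had been seen. Promoter sequences and motifs were not analysed here, and a few genes are not reported here. The scripts were tested on simulated counts.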

Additional observations from a re-analysis of the deposited data

How the results depend on the processing

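Against 1314 raised and 994 lowered DEGs, an adjusted p under 0.05 alone gave 2010 and 1495, and a log2 fold change beyond 2 gave 630 and 332. With uninjured replicate 1 and injured replicate 1 both left out, chosen after the data had been seen, 809 were raised and 668 lowered. With 1 library left out at a time, 936 to 1230 were raised and 672 to 828 lowered. RLE scaling, no filter, at least 10 counts in every library, DESeq2, counts drawn down, only the groups compared and a prior count of 2 gave 922 to 1549 raised and 861 to 1329 lowered. The number of genes with a response different from WT was 0, and became 1 in DESeq2, 1 with only the groups compared and 0 to 18 with 1 library left out. Against *yap1* Crispants it was 0, and became 1 in DESeq2 and 0 to 0 with 1 library left out. Among the gene lists, DESeq2 gave over 1.5 times the edgeR count for raised cytokines (6 against 3) and, each with 2 against 1, for lowered complement, Wnt and endothelial genes, and 1 against 0 for raised fuel metabolism genes and for lowered chemokine receptors, ionocyte, pigment cell and neural genes. The cause of these shifts was not tested. Of 168 DEGs named by the rule of choice or held in the later lists, 39 lost their call with some library left out. Under some setting 44 did, and none changed direction. These DEGs were chosen mostly by adjusted p or size of change, and some DEGs named above, such as *tnfa* and *IL10*, are not among them. Over all DEGs, 708 of 1314 raised and 446 of 994 lowered kept their call in all 6 fits with 1 library left out. RLE scaling moved the median log2 fold change of all genes from -0.001 to -0.027.

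The deviations of same-numbered uninjured and injured *wwtr1* libraries from their group means correlated at -0.098, -0.021 and -0.082 across genes. No pairing by replicate number was seen in these values, but so few pairs cannot tell whether a number marks a shared clutch or batch. With a replicate block 1449 DEGs were raised and 1191 lowered with all groups in the fit, and 1014 and 717 with only the groups compared, with 0 genes different from WT or *yap1* Crispants in either. In the latter fit *SHH* was not called (adjusted p = 0.0922).

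The smallest library held 28081131 counts, and genes near the floor of 3 counts, such as *tnfa*, *STRA6* and *mstnb*, have fold changes that depend on the prior count. Injured and uninjured samples differ in tissue makeup, which bulk counts do not separate from expression per cell.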
